A study of Homo sapiens with 12 samples.

Results

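CDKN1A, MDM2, FAS, BBC3, BAX, TP53I3, SESN1, FDXR, ZMAT3 and GDF15 are 10 genes that the transcription factor p53 is known to switch on. They were taken by gene symbol from the deposited expression table, as 10 of its 60623 genes, and all 10 passed the filter of at least 1 TPM (the unit TPM is a level per transcript length that sums to 1e6 over a library) in at least 3 of the 12 libraries, which left 16848 genes to test. The cells were HMEC-1, a human dermal microvascular endothelial line immortalised with the large T antigen of simian virus 40, a protein known to bind p53 and RB. The PF9363 group received 30 µg/mL PF9363 (per the labels, an inhibitor of the acetyltransferases KAT6A and KAT6B) together with recombinant human oncostatin M, a cytokine that signals through STAT3. The CBP300 group received 10 µg/mL CBP300 (per the labels, an inhibitor of the acetyltransferase EP300) together with oncostatin M. The OSM group received oncostatin M alone, and the control group (CT) fresh medium. All groups had 3 libraries and were harvested after 48 h. The concentration of oncostatin M is 10 ng/mL in the description of the treatment and 10 µg/mL in the labels of single samples. No group received an inhibitor without the cytokine and the labels name no vehicle, so what either inhibitor does alone was not measured. Nothing says that the replicates came from separate cultures, so p-values measure the spread between these libraries, which may be technical.

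p53 binds paired copies of a short element near its target genes after DNA damage, oncogene signals or other stress. Its targets arrest the cell cycle (CDKN1A), take part in apoptosis (FAS, BBC3, BAX), act on oxidative metabolism and growth signalling (TP53I3, FDXR, SESN1), bind RNA (ZMAT3), signal to other cells (GDF15) and feed back on p53 itself (MDM2, the ubiquitin ligase that marks p53 for destruction). The acetyltransferases p300 and CBP are known coactivators of p53 and acetylate it. The libraries measure mRNA, and neither p53 protein nor its binding was measured.

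Promoter windows from 250 bases before to 50 bases after annotated starts (RefSeq, GRCh38.p14) were found for all 10 genes, in 19 windows. They were searched on both strands for the p53 response element, as 20 bases made of its 2 abutting half-sites without a spacer, with the central C and G of each half-site required. With at most 3 mismatches the element was in 6 of the 19 windows, from 5 of the 10 genes, and in 1.12% of all 35116 windows. With at most 2 mismatches it was in 3 of the 19 windows, from 2 of the 10 genes, and in 0.285% of all windows. The best match of each of the 5 genes is shown because these are the letters closest to those through which p53 is known to reach its targets. Capitals mark the 20 bases of the match.
FAS, chr10:88991304-88991333, plus strand, 2 mismatches: ctcctGGACAAGCCCTGACAAGCCAagcca
MDM2, chr12:68808908-68808957, plus strand, 2 mismatches: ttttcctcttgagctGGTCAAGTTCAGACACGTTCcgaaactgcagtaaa
SESN1, chr6:109009003-109009052, minus strand, 3 mismatches: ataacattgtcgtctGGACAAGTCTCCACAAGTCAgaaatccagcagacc
FDXR, chr17:74872991-74873020, minus strand, 3 mismatches: ggcccGGGCAGGAGCGGGCTTGCCCtgcgg
GDF15, chr19:18386181-18386207, plus strand, 3 mismatches: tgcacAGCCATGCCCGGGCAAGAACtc
All 5 matches lay inside the annotated gene (GENCODE 29). Those of MDM2 and SESN1 were intronic, 94 and 49 bases before an internal start, and MDM2 is known to be induced by p53 from an internal promoter. The FAS and FDXR matches began 122 and 21 bases before the start of their windows' transcript, in bases that another annotated transcript of the gene holds as exon, and the GDF15 match began 28 bases after a start. A match is a description of letters, and its absence in the other 5 genes says only that these letters are not in these windows. TTCNNNGAA, the palindrome that STAT factors recognise, was in 7.66% of all windows and in 0 of the 19 windows of these genes.

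The reads behind the TPM values came to 15.7 to 16.5 × 1e6 per library in PF9363, 13.4 to 73.3 × 1e6 in CBP300 (replicate 2 the deepest), 15.7 to 20.8 × 1e6 in OSM and 16.8 to 19.6 × 1e6 in CT. PF9363 replicate 3 and CT replicate 1 stood apart from the other libraries of their groups: over tested genes PF9363 replicate 3 differed from them by a mean absolute log2 value of 0.46 and 0.39, against 0.25 between the other pair, and CT replicate 1 by 0.58 and 0.48, against 0.22. The dependence of levels on the GC content of the transcripts set CBP300 and CT apart from the other groups, whereas the OSM range lay inside that of PF9363. Per 10 percentage points of GC content, the deviation of a library from the gene means changed on the log2 scale by -0.16 to 0.14 in PF9363, by -0.38 to -0.32 in CBP300, by -0.12 to 0.003 in OSM and by 0.25 to 0.65 in CT. Changes are therefore given as deposited and also "corrected", with each library's smooth dependence on GC content and on length taken out. Because the dependence differed between groups, this also takes out any treatment change that goes with GC content or length. Technical and treatment parts of the dependence cannot be told apart here, and neither scale is taken as the truer. All 8 endothelial markers reached 1 TPM in some library, although VWF and EMCN stayed under 1 TPM in CBP300 and EMCN in PF9363. Of markers of other cell types, 3 of 5 epithelial, 1 of 5 leukocyte and 3 of 5 fibroblast or mural ones reached 1 TPM in some library, whereas PTPRC, CDH1, DCN and LUM were at or near 0. The fibroblast collagen COL1A1 (46.7 to 61.7 TPM in PF9363, 7.78 to 8.83 in CBP300, 33.9 to 38.1 in OSM and 71.8 to 91.9 in CT), with the same order of groups as BBC3 and TP53I3, the epithelial keratin KRT18 (2636 to 3813 TPM in PF9363, 512 to 521 in CBP300, 744 to 811 in OSM and 761 to 1039 in CT) and the monocyte receptor CD14 (43.96 to 59.6 TPM in PF9363, 15.6 to 17.2 in CBP300, 12.9 to 16.3 in OSM and 2.96 to 4.11 in CT) all moved with the groups, and their part in the results was not tested. The mRNAs of the inhibitors' named targets KAT6A, KAT6B and EP300 were all expressed, and so was that of CREBBP. KAT6A averaged 10.3 ± 4.44 TPM in PF9363 and 12.98 ± 1.999 TPM in OSM, and KAT6B 1.898 ± 0.761 TPM in PF9363 and 4.16 ± 0.424 TPM in OSM (SD, n = 3 each). EP300 averaged 52.3 ± 4.901 TPM in CBP300 and 29.4 ± 3.53 TPM in OSM, and CREBBP 40.9 ± 2.93 TPM in CBP300 and 28.3 ± 2.06 TPM in OSM (SD, n = 3 each). SOCS3, the feedback inhibitor that STAT3 induces, averaged 382 ± 7.84 TPM in OSM and 8.84 ± 3.08 TPM in CT (SD, n = 3 each).

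FAS set the groups apart most widely. It encodes the cell-surface death receptor (chromosome 10, 88990582 to 89015785, plus strand) and had 19.6, 16.9 and 12.9 TPM in PF9363, 2.001, 1.81 and 1.73 TPM in CBP300, 5.22, 4.46 and 3.95 TPM in OSM, and 1.31, 2.91 and 3.14 TPM in CT. All 3 PF9363 libraries were above every other library, and all 3 CBP300 libraries were below every OSM library. FAS rose in PF9363 against OSM by 1.64 ± 0.22 on the log2(TPM + 1) scale (± SE for such changes; limma, adjusted p = 0.000153), a ratio of mean TPM of 3.62. It fell in CBP300 against OSM by 0.96 ± 0.22 (limma, adjusted p = 0.0106), a ratio of 0.407. Between the inhibitors, PF9363 over CBP300, the change was 2.6 ± 0.22 (limma, adjusted p = 5.38e-06), a ratio of 8.91. These 3 changes were called, in these directions, under all 25 alternatives tried (other pseudocounts, filters, scalings and fits, and each library left out), and the corrected values were 1.94, -1.28 and 3.22. In such libraries, fewer cells that express a gene and less of its RNA per cell cannot be told apart.

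FAS was also called higher in OSM than in CT as deposited, by 0.72 ± 0.22 (adjusted p = 0.0178), but the corrected value was 0.01 and was not called. Leaving out OSM replicate 1 ended the call (0.64, adjusted p = 0.0651), and leaving out CT replicate 1, the lowest of the 12 libraries, brought the value to 0.46. In order of mean level the groups ran PF9363, OSM, CT and CBP300, and the test did not separate the last pair as deposited (adjusted p = 0.363), although it did after correction (-1.27) and without CT replicate 1 (-0.50). FAS had the lowest TPM of the 10 genes in CBP300 and in CT, and its lowest count was 35 reads, in CBP300 replicate 3. It shares 380 exon bases with ACTA2, the smooth muscle actin gene on the other strand. The libraries were made with a kit that keeps strand, but whether counting used strand is not given in the sources used here, so reads of shared bases are uncertain. ACTA2 averaged 6.66 ± 0.747 TPM in PF9363, 1.09 ± 0.181 in CBP300, 5.52 ± 0.491 in OSM and 7.49 ± 1.15 in CT (SD, n = 3 each). It was lowest in CBP300, as FAS was, and highest in CT, where FAS was low. The part of ACTA2 in the FAS values was not tested.

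**Figure D1:**
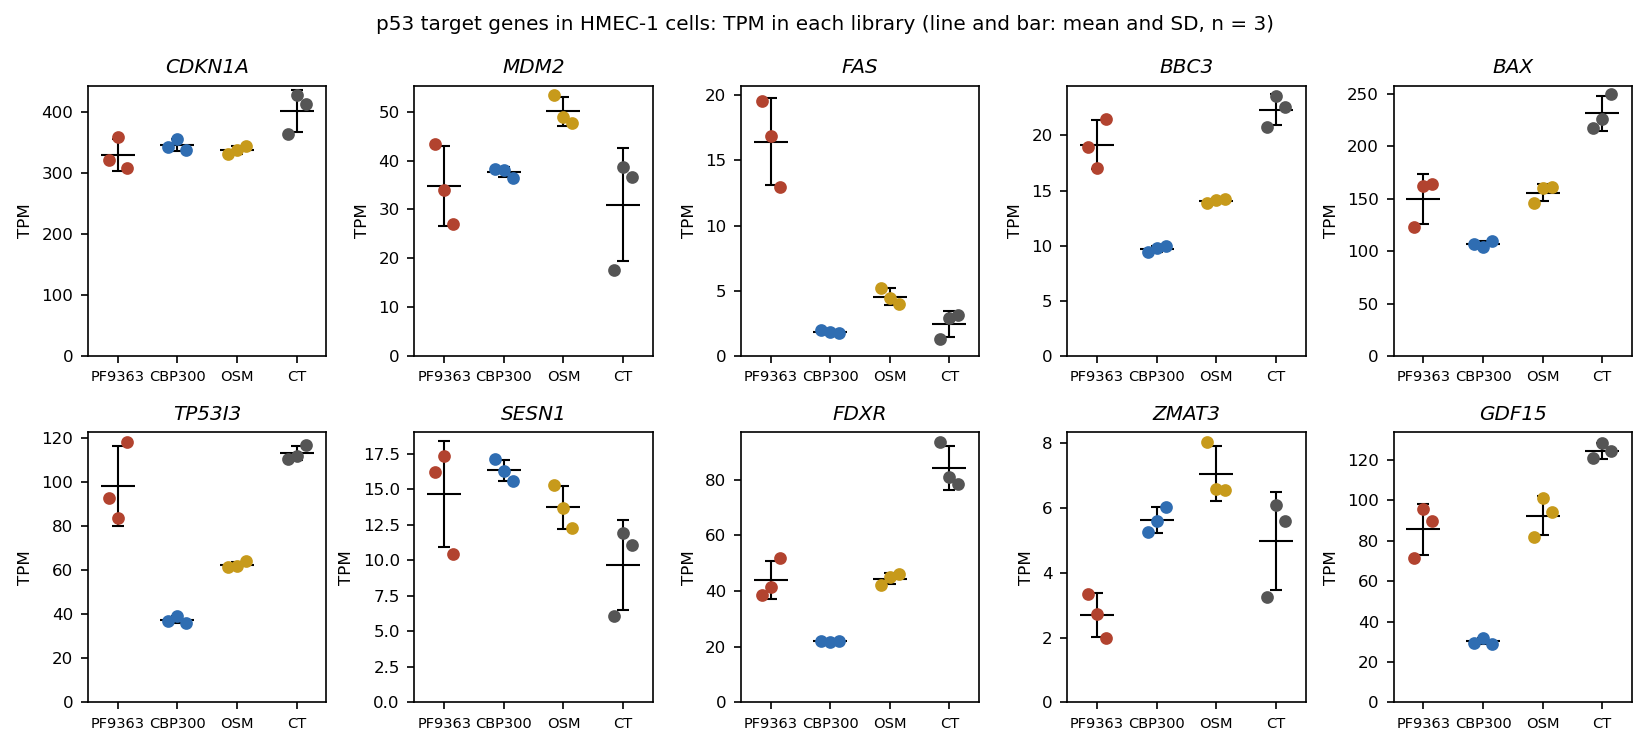
TPM of each of the 10 genes in each library, with groups from left to right PF9363, CBP300, OSM and CT; points are the 3 replicates and the line and bar are the mean and SD (n = 3), on axes that start at 0. FAS stands highest in PF9363, GDF15, FDXR, TP53I3, BBC3 and BAX stand lowest in CBP300, and CDKN1A varies little between groups.

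BBC3 and TP53I3 had the same order of mean levels, from high to low CT, PF9363, OSM and CBP300. BBC3 encodes PUMA, a BH3-only protein that disarms the survival members of the BCL2 family (chromosome 19, 47220822 to 47232766, minus strand). It had 18.9, 17.1 and 21.5 TPM in PF9363, 9.41, 9.81 and 9.95 TPM in CBP300, 13.8, 14.2 and 14.2 TPM in OSM, and 20.8, 23.6 and 22.6 TPM in CT. PF9363 libraries overlapped with those of CT but not with OSM, and the CBP300 libraries were below all others. The rise in PF9363 against OSM was 0.41 ± 0.10 (limma, adjusted p = 0.00544; ratio of means 1.36), called under all 25 alternatives, with a corrected value of 0.63, 0.66 with median-of-ratios scaling and 0.78 on recovered reads. BBC3 was called lower in CBP300 than in OSM (-0.49 ± 0.10, adjusted p = 0.00492) and lower in OSM than in CT (-0.63 ± 0.10, adjusted p = 0.00129) as deposited, but the corrected values were -0.05 and -0.14 and were not called. On recovered reads the fall in OSM against CT was larger (-1.05, adjusted p = 0.000257). Its GC content, 69.7% of the longest transcript, is the highest of the 10 genes.

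TP53I3 encodes a quinone oxidoreductase (chromosome 2, 24077433 to 24085861, minus strand). Its levels were 92.6, 83.6 and 118 TPM in PF9363, 37.1, 39.3 and 36.2 TPM in CBP300, 61.5, 62.1 and 64.1 TPM in OSM, and 111, 112 and 117 TPM in CT. The CBP300, OSM and CT libraries formed 3 separate bands, and the PF9363 libraries lay between OSM and CT except for replicate 3, which was above CT. TP53I3 rose in PF9363 against OSM by 0.63 ± 0.11 (limma, adjusted p = 0.00103; ratio of means 1.57), or 0.97 on recovered reads. In CBP300 it fell by 0.72 ± 0.11 against OSM (limma, adjusted p = 0.00124; ratio 0.599). In OSM it fell by 0.84 ± 0.11 against CT (limma, adjusted p = 0.000582; ratio 0.553). All 3 calls held under all 25 alternatives, and the corrected values were 0.88, -0.45 and -0.65. The test did not separate PF9363 from CT as deposited (-0.22, adjusted p = 0.123), and the corrected value was 0.23 (adjusted p = 0.0471). Without PF9363 replicate 3 TP53I3 was instead called lower in PF9363 than in CT (-0.36, limma, adjusted p = 0.00319). Its exons share 80 bases with FAM228B on the other strand, which averaged 0.8702 ± 0.254 TPM in PF9363, 3.67 ± 0.179 in CBP300, 3.15 ± 0.556 in OSM and 1.75 ± 0.661 in CT (SD, n = 3 each).

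BAX encodes the protein that forms pores in the outer mitochondrial membrane in apoptosis (chromosome 19, 48954815 to 48961798, plus strand). Its levels were 123, 163 and 164 TPM in PF9363, 107, 104 and 109 TPM in CBP300, 146, 159.9 and 162 TPM in OSM, and 218, 226 and 250.3 TPM in CT. CT libraries were above all others and CBP300 libraries below all others, whereas PF9363 and OSM overlapped. BAX was higher in PF9363 than in CBP300 by 0.47 ± 0.11 (limma, adjusted p = 0.00441; corrected 0.31; 0.79 with median-of-ratios scaling and 0.90 on recovered reads), and this was called under all 25 alternatives. It was called lower in CBP300 than in OSM (-0.54 ± 0.11, adjusted p = 0.00632) and lower in OSM than in CT (-0.57 ± 0.11, adjusted p = 0.00312), but the corrected values were -0.16 and -0.19 and were not called. Other scalings gave larger falls in OSM against CT, of -0.80 with median-of-ratios scaling (adjusted p = 0.00168) and -0.96 on recovered reads (adjusted p = 0.000707). The change between PF9363 and OSM was -0.07, with a 95% interval of -0.32 to 0.18.

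GDF15 and FDXR were lowest in CBP300 and highest in CT. GDF15 is a secreted stress cytokine of the TGF-beta superfamily (chromosome 19, 18374731 to 18389176, plus strand), with 71.3, 95.98 and 89.6 TPM in PF9363, 29.6, 32.04 and 29.1 TPM in CBP300, 82.01, 101 and 94.3 TPM in OSM, and 121, 129 and 124 TPM in CT. The CBP300 libraries lay far below the rest, and PF9363 and OSM overlapped. GDF15 fell in CBP300 against OSM by 1.58 ± 0.12 (limma, adjusted p = 1.08e-05), a ratio of mean TPM of 0.327, the lowest of the 10 genes in that comparison. The call held under all 25 alternatives, and the corrected value was -1.11. GDF15 was called lower in OSM than in CT (-0.43 ± 0.12, adjusted p = 0.0104), with a corrected value of 0.07 that was not called and larger falls of -0.67 with median-of-ratios scaling (adjusted p = 0.00354) and -0.83 on recovered reads (adjusted p = 0.00147). Between PF9363 and OSM its change was -0.12, with a 95% interval of -0.37 to 0.14.

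FDXR encodes the mitochondrial reductase that passes electrons to ferredoxin (chromosome 17, 74862497 to 74873031, minus strand). It had 38.7, 41.4 and 51.9 TPM in PF9363, 22.1, 21.8 and 22.1 TPM in CBP300, 42.3, 44.96 and 46.1 TPM in OSM, and 93.4, 81.1 and 78.6 TPM in CT. PF9363 and OSM overlapped, and no other groups did. FDXR fell in CBP300 against OSM by 0.98 ± 0.11 (limma, adjusted p = 0.000185; ratio of means 0.495), and it fell in OSM against CT by 0.91 ± 0.11 (limma, adjusted p = 0.000386; ratio 0.527). Both calls held under all 25 alternatives, with corrected values of -0.71 and -0.76. Its change between PF9363 and OSM was -0.02 as deposited (95% interval -0.27 to 0.22), and 0.24 with a call after correction (adjusted p = 0.0373).

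CDKN1A was the most abundant of the 10 genes, and its mean levels differed little between groups as deposited. It encodes p21, the inhibitor of cyclin-dependent kinases through which p53 arrests the cell cycle (chromosome 6, 36676460 to 36687339, plus strand). Its levels were 321, 360.2 and 309 TPM in PF9363, 343, 357 and 337 TPM in CBP300, 332, 339 and 344 TPM in OSM, and 364, 429 and 415 TPM in CT. CT libraries were above all others, and the other groups overlapped. The changes from OSM were -0.04 in PF9363 (95% interval -0.22 to 0.14) and 0.03 in CBP300 (95% interval -0.15 to 0.21). Whether they were called depended on the scale: PF9363 against OSM came to 0.22 with median-of-ratios scaling (adjusted p = 0.0344), 0.30 on recovered reads with TMM factors (adjusted p = 0.0184) and 0.23 corrected (adjusted p = 0.0189). In CBP300 against OSM the corrected value was 0.26 (adjusted p = 0.0175), and the other scalings gave -0.03 and -0.05, neither called. CDKN1A was called lower in OSM than in CT by a change of -0.25 ± 0.08 (adjusted p = 0.0261; ratio of means 0.8404), with a corrected value of -0.13 that was not called. Leaving out any 1 of the OSM libraries, CT replicate 2 or CT replicate 3 ended that call. So did quantile scaling (-0.12), leaving out mitochondrially encoded genes (-0.19) and a fit of the 2 groups alone. The fall was larger with median-of-ratios scaling (-0.49, adjusted p = 0.00101) and on recovered reads (-0.64, adjusted p = 0.000381).

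MDM2 was out of line in the same libraries that stood apart over all genes. It encodes the ubiquitin ligase of p53 (chromosome 12, 68808176 to 68850686, plus strand) and had 43.3, 33.9 and 26.996 TPM in PF9363, 38.3, 38.1 and 36.4 TPM in CBP300, 53.5, 48.96 and 47.8 TPM in OSM, and 17.7, 38.7 and 36.6 TPM in CT. The OSM libraries were above all others, CT replicate 1 was the lowest of the 12, and PF9363 replicate 3 was the next. MDM2 was called higher in OSM than in CT by 0.75 ± 0.26 (limma, adjusted p = 0.0289; ratio of means 1.62). The sign turned on correction, to -0.42 (adjusted p = 0.00375), and the value was 0.38 on recovered reads, not called. Without CT replicate 1 the value was 0.40 (adjusted p = 0.0538), and leaving out OSM replicate 1, 2 or 3 also ended the call (adjusted p = 0.0811, 0.0604 and 0.0551). As deposited, MDM2 did not pass in PF9363 against OSM (-0.54 ± 0.26, adjusted p = 0.111) or in CBP300 against OSM (-0.40 ± 0.26, adjusted p = 0.252), although neither pair of groups overlapped. Without CT replicate 1, which belongs to neither pair but enters the shared spread, both passed (adjusted p = 0.00772 and 0.0376). The corrected values were 0.03 in PF9363, not called, and -0.99 in CBP300 (adjusted p = 1.65e-05).

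SESN1 and ZMAT3 share with MDM2 and FAS a GC content under 50% and their lowest CT value in replicate 1. SESN1 encodes sestrin 1, a restraint on mTORC1 signalling (chromosome 6, 108986437 to 109094819, minus strand), with 16.2, 17.4 and 10.5 TPM in PF9363, 17.1, 16.3 and 15.6 TPM in CBP300, 15.3, 13.7 and 12.3 TPM in OSM, and 6.05, 11.9 and 11.1 TPM in CT. CBP300 and CT libraries did not overlap, and PF9363 replicate 3 was below every CBP300 and OSM library. SESN1 was called higher in CBP300 than in CT by 0.75 ± 0.24 (adjusted p = 0.015), or 0.47 without CT replicate 1, and the corrected value was -0.22, not called. With median-of-ratios scaling it was 0.47, called, and on recovered reads 0.34, not called. No other comparison of SESN1 was called as deposited, and no neighbours in its order of levels (CBP300, PF9363, OSM, CT) were separated by the test. Corrected, it was higher in PF9363 than in OSM by 0.41 (adjusted p = 0.00426), where the change as deposited was 0.06.

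ZMAT3 encodes an RNA-binding zinc finger protein (chromosome 3, 179017223 to 179072279, minus strand). Its levels were 3.34, 2.73 and 1.98 TPM in PF9363, 5.24, 5.603 and 6.02 TPM in CBP300, 8.02, 6.58 and 6.54 TPM in OSM, and 3.25, 6.08 and 5.58 TPM in CT. PF9363 libraries were below all CBP300 and OSM libraries. ZMAT3 fell in PF9363 against OSM by 1.14 ± 0.20 (limma, adjusted p = 0.000901; ratio of means 0.381), and the call held under all 25 alternatives (corrected -0.63). In OSM against CT its change was 0.46 as deposited, not called, and -0.80 corrected (adjusted p = 0.000505). The change in CBP300 against OSM was -0.28 as deposited, not called, and -0.88 corrected (adjusted p = 0.000225). Its lowest count was 118 reads, in PF9363 replicate 3.

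Counted together, in PF9363 against OSM 3 of the 10 genes were called higher (FAS, BBC3, TP53I3) and 1 lower (ZMAT3), where 11.3% of all tested genes were called higher, 35.6% lower and 46.9% either way. The median change of the 10 was -0.03 and that of all tested genes -0.31. The median of all genes is itself a matter of scale, since it was -0.10 with median-of-ratios scaling and 0.02 after correction. Of the 10 genes 8 lay above the median of all tested genes as deposited and 9 after correction. Corrected, 6 were called higher (CDKN1A, FAS, BBC3, TP53I3, SESN1, FDXR) and ZMAT3 lower, where 27.7% of all genes were called higher, 24.6% lower and 52.3% either way. The libraries of the groups did not overlap for 5 of the 10 genes, against 59.9% of all tested genes.

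In CBP300 against OSM 6 of the 10 genes were called, all of them lower (GDF15, FAS, BBC3, BAX, TP53I3, FDXR), where 13.3% of all tested genes were called lower, 13.8% higher and 27.1% either way. Their median change was -0.52, against 0.11 over all tested genes, and 9 of the 10 lay below that median. After correction 6 were again called lower, with MDM2 and ZMAT3 in place of BBC3 and BAX, and CDKN1A was called higher, where 14.4% of all genes were called lower, 17.4% higher and 31.7% either way. GDF15, FAS, TP53I3 and FDXR were called lower under all 25 alternatives. Groups did not overlap for 9 of the 10 genes, against 66.5% of all tested genes.

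Between the inhibitors, each with oncostatin M, 6 of the 10 genes were called higher in PF9363 than in CBP300 and 1 lower (ZMAT3), where 14.5% of all tested genes were called higher, 45.1% lower and 59.6% either way. The median change was 0.69, against -0.41 over all tested genes. The 6 were FAS, GDF15, TP53I3, FDXR, BBC3 and BAX, with ratios of mean TPM of 8.91, 2.83, 2.62, 1.999, 1.97 and 1.403, and all 6 were called under all 25 alternatives. Corrected, MDM2 (1.02) and SESN1 (0.46) were called higher too, which made 8 of the 10, where 27.7% of all genes were called higher, 27.9% lower and 55.6% either way. ZMAT3 was at -0.86 ± 0.20 as deposited (adjusted p = 0.00391), and its sign turned on correction (0.26, not called). For CDKN1A the difference was -0.07, with a 95% interval of -0.25 to 0.11, but it was called higher in PF9363 with median-of-ratios scaling (0.25, adjusted p = 0.0143) and on recovered reads (0.35, adjusted p = 0.006). Groups did not overlap for 7 of the 10 genes, against 71.1% of all tested genes. The inhibitors were given at 30 and 10 µg/mL, so the values compare these treatments and not the compounds at 1 dose.

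**Figure D2:**
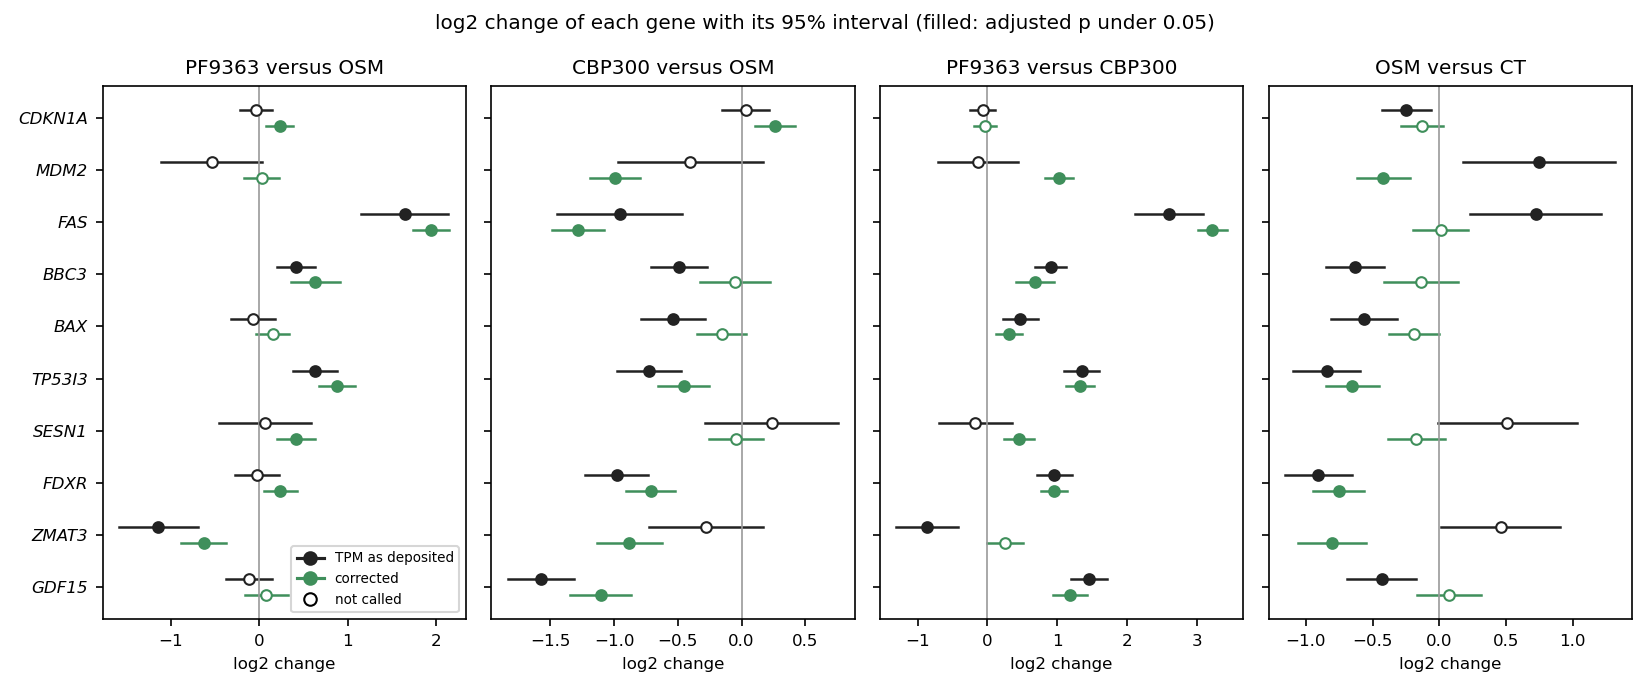
log2 change of each gene in 4 comparisons with its 95% interval, from TPM as deposited (black) and after removal of the dependence on GC content and length (green); filled points have an adjusted p under 0.05 in limma. In PF9363 versus CBP300, FAS, BBC3, BAX, TP53I3, FDXR and GDF15 lie to the right of 0 on both scales, while MDM2 in OSM versus CT lies on opposite sides of 0.

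In OSM against CT, 6 of the 10 genes were called lower (CDKN1A, GDF15, BBC3, BAX, TP53I3, FDXR) and 2 higher (MDM2, FAS), where 15.2% of all tested genes were called lower, 42.1% higher and 57.2% either way. The median change was -0.34, against 0.31 over all tested genes, and without OSM replicate 1 the number of genes called was 5, where 44.9% of all tested genes were called. The groups did not overlap for any of the 10 genes, nor for 67.4% of all tested genes. The split followed GC content: the 4 genes with a GC content of 39.1% to 43.4% (MDM2, FAS, SESN1, ZMAT3) had positive values and the 6 with 58.1% to 69.7% had negative ones. Across the 10 genes the change and the GC content had Pearson r = -0.91 and Spearman rho = -0.78, and across 11909 genes r was -0.50, where genes are not independent replicates. After correction 4 genes were called, all lower (MDM2, TP53I3, ZMAT3, FDXR), where 27.3% of all genes were called lower, 23.6% higher and 50.9% either way, and the median change was -0.18, against -0.04 over all genes. TP53I3 and FDXR were called lower under all 25 alternatives.

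**Figure D3:**
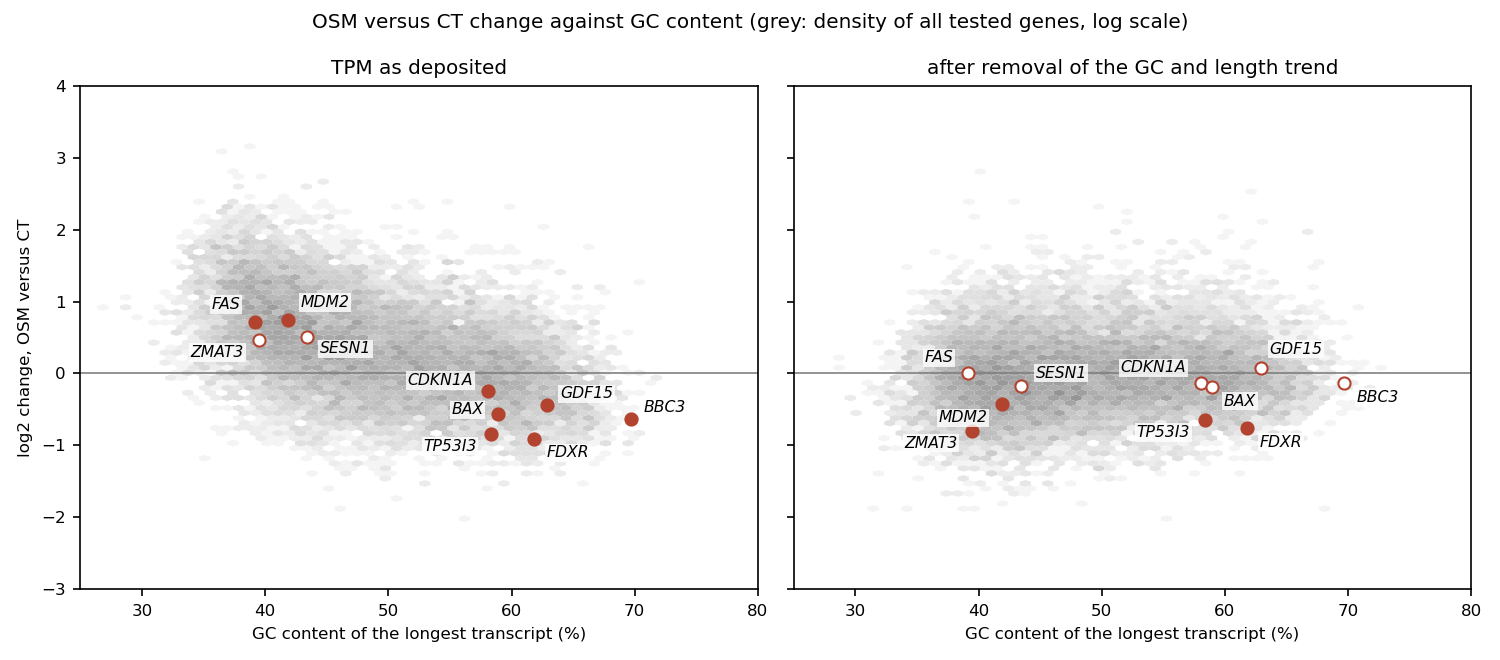
log2 change in OSM versus CT against the GC content of the longest transcript (%), from TPM as deposited (left) and after removal of the dependence on GC content and length (right); red circles are the 10 genes (filled: adjusted p under 0.05) and grey shows the density of the tested genes that fall within the axes. On the left the 4 genes of low GC content lie above 0 and the 6 of high GC content below it, and on the right 8 of the 10 lie below 0.

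The inhibitor groups were also set against CT. In PF9363 against CT, FAS was called higher (2.37 ± 0.22, adjusted p = 9.06e-06, ratio of means 6.71) and 5 genes were called lower (CDKN1A, GDF15, BAX, ZMAT3, FDXR), where 27.9% of all tested genes were called higher, 28.4% lower and 56.3% either way. Without PF9363 replicate 3 the number called was 9 of the 10, where 60.1% of all tested genes were called, against 6 with it. BBC3 (-0.30, limma, adjusted p = 0.0177) and TP53I3 (-0.36, limma, adjusted p = 0.00319) were then called lower, and SESN1 (0.78, limma, adjusted p = 0.0142) higher. The call of ZMAT3 (-0.68 ± 0.20) was lost without CT replicate 2 (-0.54) or 3 (-0.59). Corrected, 3 were called higher (FAS, BBC3, TP53I3) and 3 lower (MDM2, ZMAT3, FDXR), where 32.3% of all genes were called higher, 31.0% lower and 63.3% either way. The corrected values of CDKN1A (0.10), GDF15 (0.15) and BAX (-0.04) were not called. FAS (higher) and FDXR (lower) were the genes called under all 25 alternatives. Groups did not overlap for 5 of the 10 genes, against 53.4% of all tested genes.

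In CBP300 against CT, SESN1 was called higher and 6 were called lower (CDKN1A, GDF15, BBC3, BAX, TP53I3, FDXR), where 48.1% of all tested genes were called higher, 22.7% lower and 70.8% either way. GDF15 fell there by 2.01 ± 0.12 (limma, adjusted p = 1.16e-06), FDXR by 1.89 ± 0.11 (limma, adjusted p = 1.3e-06) and TP53I3 by 1.57 ± 0.11 (limma, adjusted p = 4.21e-06). Those 3 and BAX (-1.11 ± 0.11) were called under all 25 alternatives, with corrected values of -1.03, -1.47, -1.1 and -0.35. The CDKN1A call (-0.22 ± 0.08) was lost without any 1 of the CBP300 or OSM libraries, CT replicate 2 or CT replicate 3, and the value was -0.52 with median-of-ratios scaling and -0.69 on recovered reads, both called. It was not called with quantile scaling (-0.03), without mitochondrially encoded genes (-0.15), without the filter, in a fit of the 2 groups alone or after correction (0.13). Corrected, 7 of the 10 were called, all lower, where 32.0% of all genes were called lower, 32.5% higher and 64.5% either way. Groups did not overlap for 7 of the 10 genes, against 76.0% of all tested genes. The comparisons with CT share the CT libraries and those with OSM share the OSM libraries, so their values are not independent of each other.

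MDM4, the MDM2 relative that masks p53 without degrading it, averaged 7.32 ± 1.37 TPM in PF9363, 16.1 ± 0.726 in CBP300, 12.04 ± 0.589 in OSM and 7.05 ± 1.66 in CT (SD, n = 3 each). It was called lower in PF9363 than in OSM (-0.66 ± 0.16, adjusted p = 0.00725), with a corrected value of -0.13 that was not called. In OSM it was called higher than in CT (0.72 ± 0.16, adjusted p = 0.00515), and the sign turned on correction (-0.41). It did not pass in CBP300 against OSM (0.39 ± 0.16, adjusted p = 0.101), but was called higher there under median-of-ratios scaling (0.32, adjusted p = 0.0444) and quantile scaling, on recovered reads, in a fit of the 2 groups alone and without CT replicate 1 (adjusted p from 0.00194 to 0.0426), and its sign turned on correction (-0.14, not called). CDKN2A, whose ARF product restrains MDM2 and whose p16 product restrains CDK4 and CDK6, averaged 89.8 ± 19.002 TPM in PF9363, 92.9 ± 3.85 in CBP300, 141 ± 9.97 in OSM and 272 ± 24.1 in CT (SD, n = 3 each). It fell in OSM against CT by 0.94 ± 0.14 (limma, adjusted p = 0.00113; corrected -0.48). In PF9363 against OSM it was called lower (-0.67 ± 0.14, adjusted p = 0.00287; corrected -0.46), but not with median-of-ratios scaling (-0.41) or on recovered reads (-0.34). It was called lower in CBP300 than in OSM (-0.60 ± 0.14, adjusted p = 0.0118), but not corrected (-0.16) or without OSM replicate 3 (-0.55).

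Of the list of p53 and its regulators 20 genes were tested. In PF9363 against OSM 2 were called higher and 7 lower (median -0.12, against -0.31), where 11.3% of all tested genes were called higher and 35.6% lower. Corrected, 9 were called higher and 5 lower (median 0.18, against 0.02), where 27.7% of all genes were called higher and 24.6% lower. The damage response genes TP53BP1 (-1.89 ± 0.22, adjusted p = 5.68e-05), CHEK2 (-1.23 ± 0.10, adjusted p = 3.91e-06) and ATM (-1.14 ± 0.26, adjusted p = 0.00462) were lower on both scales (corrected -1.34, -0.90 and -0.56).

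A further 36 known p53 targets were all tested, and in every comparison some were called higher and some lower, as deposited and corrected. In PF9363 against OSM 7 were called higher and 11 lower (median -0.26, against -0.31 over all tested genes), where 11.3% of all tested genes were called higher and 35.6% lower. Corrected, 13 were called higher and 6 lower, where 27.7% of all genes were called higher and 24.6% lower. SERTAD1, a transcriptional coregulator, averaged 218 ± 37.5 TPM in PF9363 and 65.4 ± 4.64 TPM in OSM, a rise of 1.71 ± 0.13 (limma, adjusted p = 3.7e-06). PERP, a membrane protein of desmosomes that takes part in apoptosis, averaged 12.5 ± 2.29 TPM in PF9363 and 3.46 ± 0.858 TPM in OSM (1.6 ± 0.21, adjusted p = 0.000126). PLK2, a kinase, rose by 1.04 ± 0.26 (adjusted p = 0.00693) and BTG2, an antiproliferative gene, fell by 0.92 ± 0.21 (adjusted p = 0.00492). The corrected values of these 4 were 2.0, 1.97, 1.38 and -0.59, all called. CBP300 against OSM gave 3 of the 36 called higher and 10 lower (median 0.03, against 0.11), where 13.8% of all tested genes were called higher and 13.3% lower. Corrected, 8 were called higher and 14 lower (median -0.05, against 0.04), where 17.4% of all genes were called higher and 14.4% lower. PHLDA3, a p53-induced inhibitor of AKT, averaged 7.75 ± 0.796 TPM in CBP300 and 23.3 ± 1.54 TPM in OSM (-1.47 ± 0.17, adjusted p = 0.000168), and CMBL, a hydrolase, fell by 0.87 ± 0.12 (adjusted p = 0.000567). SERTAD1 (1.05 ± 0.13, adjusted p = 0.000371) and PERP (1.31 ± 0.21, adjusted p = 0.00142) were higher with CBP300 as well.

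In OSM against CT 13 of the 36 were called higher and 7 lower (median 0.16, against 0.31 over all tested genes), where 42.1% of all tested genes were called higher and 15.2% lower. Corrected, 8 were called higher and 17 lower, where 23.6% of all genes were called higher and 27.3% lower. ACER2, an alkaline ceramidase, averaged 9.81 ± 1.63 TPM in OSM and 1.14 ± 0.737 TPM in CT (2.39 ± 0.43, adjusted p = 0.00224; corrected 2.21). PMAIP1, which encodes the BH3-only protein NOXA, averaged 56.8 ± 8.88 TPM in OSM and 12.9 ± 8.64 TPM in CT (2.28 ± 0.46, adjusted p = 0.00334; corrected 1.64). SUSD6 rose too (1.76 ± 0.26, adjusted p = 0.00107; corrected 1.26). RRM2B, a ribonucleotide reductase subunit, was called higher as deposited (1.4 ± 0.35, adjusted p = 0.00693) but not corrected (0.19). Between PF9363 and CBP300, 8 of the 36 were called higher and 6 lower as deposited (median -0.002, against -0.41), where 14.5% of all tested genes were called higher and 45.1% lower. After correction 21 were called higher and 3 lower (median 0.27, against -0.01), where 27.7% of all genes were called higher and 27.9% lower. PHLDA3 (1.19 ± 0.17, adjusted p = 0.000153) and the glutathione peroxidase GPX1 (1.28 ± 0.15, adjusted p = 4.6e-05) were among those higher on both scales. RRM2B (-1.16, limma, adjusted p = 0.0141) and CCNG1 (-1.02, limma, adjusted p = 0.0198) were among those called lower as deposited.

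**Figure D4:**
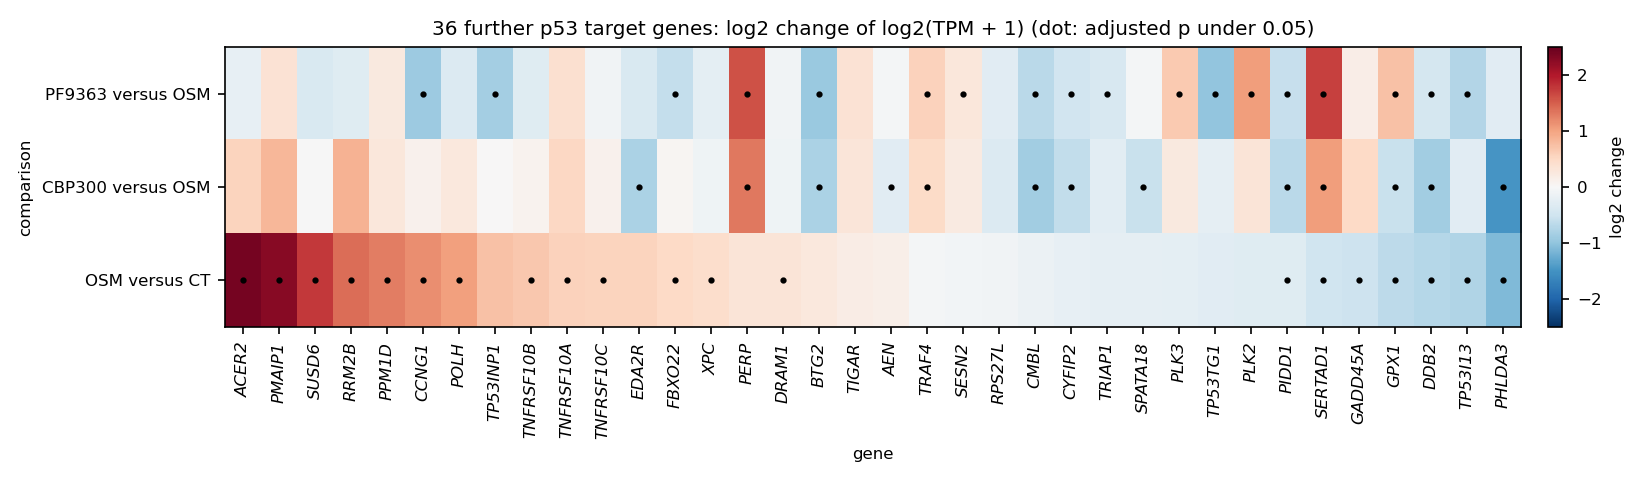
log2 change of the 36 further p53 target genes (ordered by their OSM versus CT change) in 3 comparisons; colour gives the change on the log2(TPM + 1) scale from TPM as deposited, and a dot marks an adjusted p under 0.05 in limma. SERTAD1 and PERP are higher with both inhibitors, and ACER2, PMAIP1 and SUSD6 have the highest values in OSM versus CT.

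Genes that share steps with these pathways were counted in the same fit. The share of all tested genes called was 11.3% higher and 35.6% lower in PF9363 against OSM, 13.8% higher and 13.3% lower in CBP300 against OSM, and 42.1% higher and 15.2% lower in OSM against CT. Of the 5 other CDK inhibitors tested, 3 were called in PF9363 against OSM, all higher: CDKN1C (p57; 1.35 ± 0.16, adjusted p = 5.97e-05), CDKN2B (p15; 1.33 ± 0.22, adjusted p = 0.000696) and CDKN2D (p19; 1.14 ± 0.10, adjusted p = 9.7e-06), with corrected values of 1.58, 1.7 and 1.36, also called. CDKN2D averaged 86.5 ± 13.3 TPM in PF9363, 38.3 ± 0.785 TPM in OSM and 75.1 ± 2.06 TPM in CT (SD, n = 3 each), with a fall of 0.95 ± 0.10 in OSM against CT (adjusted p = 0.000168). CDKN1B (p27) rose in OSM against CT by 1.47 ± 0.36 (adjusted p = 0.00652), or 0.94 without CT replicate 1. Of the 14 cell cycle genes that p21 is known to repress through RB and DREAM, 6 were called higher and 3 lower in PF9363 against OSM (median 0.22, against -0.31). Corrected, 9 were called higher and 2 lower (median 0.59, against 0.02), where 27.7% of all genes were called higher and 24.6% lower. CDC25C (-0.82, limma, adjusted p = 6.65e-06) and MCM5 (-0.78, limma, adjusted p = 1.54e-05) were lower, and BIRC5 (0.63 ± 0.08, adjusted p = 0.000141) and CDC20 (0.49 ± 0.07, adjusted p = 0.000232) higher. Of the 14, 1 was called higher and 1 lower in CBP300 against OSM (median 0.13, against 0.11). After correction 5 were called higher there and 0 lower (median 0.17, against 0.04), where 17.4% of all genes were called higher and 14.4% lower. In OSM against CT 5 were called higher and 3 lower (median -0.03, against 0.31), the higher ones including LMNB1 (1.24 ± 0.28, adjusted p = 0.00512) and CCNA2 (1.22 ± 0.36, adjusted p = 0.0153). Corrected, 2 of the 14 were called higher and 8 lower (median -0.21, against -0.04), where 23.6% of all genes were called higher and 27.3% lower. CCNA2 was at 0.69 without CT replicate 1 and was not called in a fit of the OSM and CT libraries alone (adjusted p = 0.0663).

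Of the 13 listed BCL2 family genes 10 were tested, and 3 were called higher and 3 lower in CBP300 against OSM (median -0.07, against 0.11), where 13.8% of all tested genes were called higher and 13.3% lower. BCL2L11, which encodes the BH3-only protein BIM, averaged 45.3 ± 1.64 TPM in CBP300 and 15.2 ± 0.896 TPM in OSM (1.52 ± 0.20, adjusted p = 0.000502). MCL1, a survival member, averaged 950.3 ± 28.3 TPM in CBP300 and 433 ± 33.3 TPM in OSM (1.13 ± 0.20, adjusted p = 0.00244). BCL2L11 was also higher in OSM than in CT (1.18 ± 0.20, adjusted p = 0.00194; corrected 0.41). In PF9363 against OSM 3 were called higher and 5 lower (median -0.18, against -0.31), where 11.3% of all tested genes were called higher and 35.6% lower, among them the BH3-only gene BAD (-1.5 ± 0.22, adjusted p = 0.000291). Of the 8 genes of the ATF4 and integrated stress response, 5 were called higher and 1 lower in PF9363 against OSM (median 0.55, against -0.31) and 4 higher and 1 lower in CBP300 against OSM (median 0.43, against 0.11). PPP1R15A, the phosphatase subunit GADD34, rose by 1.35 ± 0.08 in PF9363 (adjusted p = 7.26e-07) and by 0.93 ± 0.08 in CBP300 (adjusted p = 3.22e-05), and ATF3 rose by 1.49 ± 0.09 in PF9363 (adjusted p = 7.22e-07), each against OSM. All 4 STAT3 feedback genes were called higher in OSM than in CT (median 2.58, against 0.31), SOCS3 by 5.34 ± 0.20 (adjusted p = 2.13e-07).

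The tested genes whose levels on the log2(TPM + 1) scale followed those of CDKN1A, MDM2 and GDF15 most closely over the 12 libraries are a description only, since the libraries fall into 4 groups and share depth and composition. They were LBH, FLVCR2 and GPER1 for CDKN1A (Pearson r = 0.92, 0.91 and 0.90), PLS3, CALD1 and COPS8P2 for MDM2 (0.99, 0.97 and 0.97), and SDF4, TGFB1I1 and BGN for GDF15 (0.99 each). Among the 10 genes BBC3 with TP53I3 (0.99) and BAX with FDXR (0.96) were the closest pairs, whereas CDKN1A with MDM2 had -0.10.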

How the data were processed

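Poly(A) RNA from 12 HMEC-1 samples was sequenced as paired ends with a stranded kit, per the labels' protocols. Per the submitters' processing notes, Trimmomatic 0.40, Bowtie2 and RSEM 1.3.3 were used with GRCh38. The authors deposited TPM values, which sum to 1e6 per library, except that the PF9363 columns fall short by 178 to 430. Their annotation release and strand setting are not given in the sources used here.

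Values were tested as log2(TPM + 1) with limma 3.58.1 (trend, 4 group means, 6 contrasts, Benjamini-Hochberg within each), called at an adjusted p under 0.05. Genes needed at least 1 TPM in at least 3 libraries. The corrected values take out natural splines (4 degrees of freedom each) on GC content and transcript length (GENCODE 29), for 16729 genes. Whole reads were recovered from the TPM steps for 16843 of 16848 genes (99.97%, tolerance 0.001) and tested with TMM factors and limma-voom as an alternative. It called 7, 5, 8, 8, 7 and 7 of the 10 genes in OSM versus CT, PF9363 versus OSM, CBP300 versus OSM, PF9363 versus CBP300, PF9363 versus CT and CBP300 versus CT. The share of all tested genes called is not given for this alternative, so these counts show only how the calls of the 10 genes vary. Other alternatives changed pseudocount, filter, scaling, variance moderation or library. The fit was tested on simulated data with known changes.

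The 10 genes and the other lists were chosen with earlier results of these data known. Besides them MDM4, CDKN2A, the inhibitors' named targets and CREBBP are given, and from each other list some of the up to 4 called genes with the largest absolute change and at least 5 TPM in the higher group. A further gene that the rule names is not reported here.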

Additional observations from a re-analysis of the deposited data

How the results depend on the processing

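Of 60 results for the 10 genes (6 comparisons each), 38 were called as deposited, and 22 of these the same way under all 25 alternatives. Of the 60, 12 were called under at least 1 alternative with a sign opposite to the deposited value. Among these, only MDM2 in OSM versus CT was also called as deposited. Pseudocounts of 0.1 and 5 TPM, a filter at 5 TPM and robust moderation kept the direction and the call of every result, and a fit without mitochondrially encoded genes, no filter on low values and the replicate block kept all directions. Against 8 genes called in OSM versus CT as deposited, 5 were called when only the compared groups were fitted and 4 after the correction for GC content and length, also with the replicate block and without PF9363 replicate 3. Against 4 called in PF9363 versus OSM as deposited, 7 were called after correction, also without CT replicate 1. These 2 corrected counts with a library left out were chosen after seeing the data. With each library left out in turn, the number called ran from 5 to 9 in OSM versus CT, 4 to 5 in PF9363 versus OSM, 6 to 7 in CBP300 versus OSM, 5 to 9 in PF9363 versus CT and 6 to 8 in CBP300 versus CT, and was 7 throughout in PF9363 versus CBP300. Apart from the shares of all tested genes given above, none are given for these alternatives, so the counts describe only the stability of the calls. Same-numbered replicates did not deviate together (18 pairs, r from -0.48 to 0.23, 3 of them over 0.1), so the numbers were not taken to pair libraries. The plain replicate block ended 1 call, that of MDM2 in OSM versus CT, and the block with the correction gave the corrected values.

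After the correction 24 changes turned sign, with the same values under the replicate block, which ended the calls of FDXR in PF9363 versus OSM and TP53I3 in PF9363 versus CT. In PF9363 versus OSM the value was 0.23 for CDKN1A (called), 0.030 for MDM2, 0.080 for GDF15, 0.15 for BAX and 0.24 for FDXR (called). In CBP300 versus OSM the value was -0.044 for SESN1 and -0.14 for MDM4. In PF9363 versus CBP300 the value was 1.02 for MDM2 (called), 0.46 for SESN1 (called) and 0.26 for ZMAT3. In OSM versus CT the value was -0.42 for MDM2 (called), 0.074 for GDF15, -0.17 for SESN1, -0.80 for ZMAT3 (called) and -0.41 for MDM4 (called). In PF9363 versus CT the value was 0.099 for CDKN1A, -0.39 for MDM2 (called), 0.15 for GDF15, 0.49 for BBC3 (called) and 0.23 for TP53I3 (called). In CBP300 versus CT the value was 0.13 for CDKN1A, -1.41 for MDM2 (called), -0.22 for SESN1 and -1.68 for ZMAT3 (called). Median-of-ratios scaling turned 9. In PF9363 versus OSM the value was 0.22 for CDKN1A (called), 0.14 for GDF15, 0.19 for BAX and 0.23 for FDXR. In CBP300 versus OSM the value was -0.034 for CDKN1A. In PF9363 versus CBP300 the value was 0.25 for CDKN1A (called), 0.18 for MDM2 and 0.13 for SESN1. In CBP300 versus CT the value was -0.069 for ZMAT3. Recovered reads turned 10. In PF9363 versus OSM the value was 0.30 for CDKN1A (called), 0.22 for GDF15, 0.27 for BAX and 0.31 for FDXR. In CBP300 versus OSM the value was -0.049 for CDKN1A. In PF9363 versus CBP300 the value was 0.35 for CDKN1A (called), 0.28 for MDM2 and 0.23 for SESN1. In CBP300 versus CT the value was -0.12 for MDM2 and -0.25 for ZMAT3. Quantile scaling turned 7. In PF9363 versus OSM the value was 0.22 for FDXR. In PF9363 versus CBP300 the value was 0.35 for MDM2 and 0.42 for SESN1 (called). In OSM versus CT the value was -0.065 for SESN1 and -0.066 for ZMAT3. In CBP300 versus CT the value was -0.24 for MDM2 and -0.37 for ZMAT3 (called). Leaving out 1 library turned the sign of small changes, none of them called, which ranged from -0.10 to 0.0074 for CDKN1A in PF9363 versus OSM, -0.30 to 0.028 for MDM2 in PF9363 versus CBP300, -0.14 to 0.41 for MDM2 in PF9363 versus CT, -0.0021 to 0.54 for MDM2 in CBP300 versus CT, -0.20 to 0.0099 for GDF15 in PF9363 versus OSM, -0.14 to 0.069 for BAX in PF9363 versus OSM, -0.066 to 0.27 for SESN1 in PF9363 versus OSM, -0.30 to 0.038 for SESN1 in PF9363 versus CBP300, -0.046 to 0.32 for ZMAT3 in CBP300 versus CT and -0.15 to 0.061 for FDXR in PF9363 versus OSM. The cause of these turns was not tested.

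Depth limits the genes with the fewest reads: the lowest counts were 35 for FAS and 115 for BBC3, both in CBP300 replicate 3, and 118 for ZMAT3 in PF9363 replicate 3. PF9363 replicate 3 and CT replicate 1 were the lowest libraries of their groups for MDM2, FAS, SESN1 and ZMAT3, and of these MDM2, SESN1 and ZMAT3 changed sign between the deposited and the corrected values in OSM versus CT.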
